A study of Mus musculus with 4 samples.

Results

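Genes that mark or direct the hair placode, outside the Wnt and Hedgehog pathways, were followed in basal cells of the embryonic epidermis with and without Ezh2. The 10 genes were Edar, Edaradd, Sostdc1, Dkk4, Fgf20, Foxi3, Trps1, Nfatc1, Lhx2 and Runx1, chosen by name, and every probe set that carried only 1 of these symbols was taken. Of these, 9 had such a probe set, 27 probe sets in all among the 45037 on the array that were not controls. Foxi3, a forkhead factor of ectodermal placodes, had none and was not analysed here. In 23 of the 27 probe sets the mean signal over the 4 arrays reached the level required for testing, 73.2, and each of the 9 genes kept at least 1.

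The hair placode is a local thickening of the embryonic epidermis from which a follicle grows. Ectodysplasin binds its receptor Edar, the adaptor Edaradd passes the signal to NF-kB, and together with Wnt this switches on secreted factors such as Fgf20 and Dkk4 in the placode. Lhx2, Runx1 and Nfatc1 are transcription factors better known from the stem cells of the formed follicle. Ezh2 is the enzyme of Polycomb repressive complex 2 that methylates histone H3 and so silences genes.

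Basal cells had been purified by cell sorting from the skin of mice at embryonic day 16. Ezh2cKO embryos carried a conditional knockout of Ezh2 and WT embryos were its wild-type controls, both on a mixed C57 and CD1 background. The Cre line is not given in the sources used here. There were 4 Affymetrix arrays, numbered 1 and 2 within each genotype, and nothing in the labels says that the 2 samples of a genotype came from separate embryos. The p-values therefore reflect only how far these samples differ, possibly for technical reasons, and the small number of arrays limits the precision.

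Ezh2 itself had signals of 661 and 1308 on the Ezh2cKO arrays, against 3336 and 3603 on the WT arrays. Among the basal keratinocyte markers, 6 of 6 passed the filter, with summed signals of 60997 and 59432 in Ezh2cKO and 66809 and 58382 in WT. Markers of other cells were also present. The summed signal of 8 dermal fibroblast markers was 62694 and 71858 in Ezh2cKO and 62959 and 68076 in WT, and that of 7 suprabasal markers was 55873 and 49097 in Ezh2cKO and 50784 and 43754 in WT. Of these 7, 3 had higher Ezh2cKO signal without overlap, the late differentiation genes Flg, Lor and Ivl. Flg had 169 and 184 in Ezh2cKO, against 23.8 and 29.5 in WT. Lor had 5629 and 3423 in Ezh2cKO, against 1753 and 2498 in WT. The part of such cells in the genotype differences was not tested. Ezh2cKO 1 stood apart in Xist, a marker of embryo sex, with a signal of 86.9, against 11333 in Ezh2cKO 2 and 8669 and 10527 in WT. The Y-linked gene Eif2s3y had 861 and 404 in Ezh2cKO, against 222 and 535 in WT. The 2 Ezh2cKO samples thus differed in their markers of embryo sex, so they were not repeats of the same RNA. The median signal over all probe sets was 148 in Ezh2cKO 2 and 137 in WT 2, against 87.4 in Ezh2cKO 1 and 91.6 in WT 1. The arrays thus differed more by number than by genotype, and each gene is given below on every array, within each number and between the numbers.

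The clearest differences among the placode genes lay between the array numbers. Lhx2, Fgf20 and Sostdc1 were lower on both arrays numbered 2 than on both numbered 1 and passed the test, in knockout and control alike. Between the genotypes, no placode gene passed. Nfatc1, Trps1, Lhx2 and Runx1 had higher signal in Ezh2cKO than in WT within both numbers, and Dkk4, Edaradd and Sostdc1 had lower signal within both, by their brightest probe sets.

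**Figure D1:**
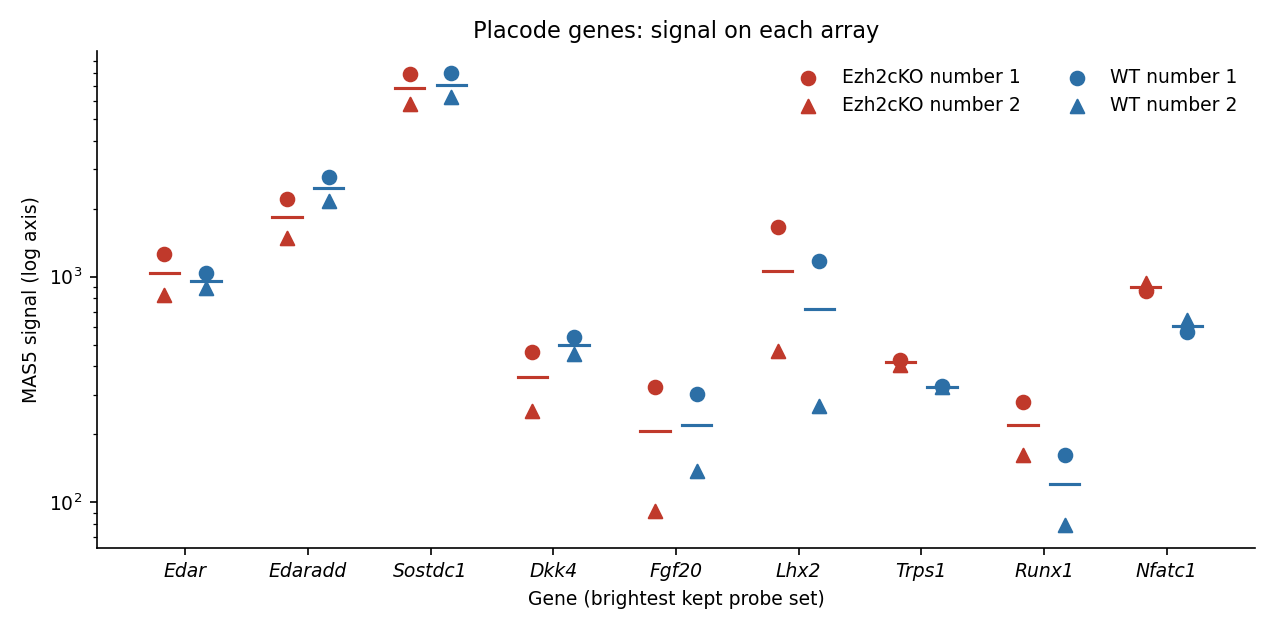
MAS5 signal (log axis) of the brightest kept probe set of each of the 9 placode genes, with Ezh2cKO in red left of WT in blue, array number 1 as circles, number 2 as triangles and the mean of the 2 arrays as a bar. The genotypes do not overlap for Nfatc1 (866 and 934 in Ezh2cKO against 565 and 644 in WT) or for Trps1, while the array numbers are far apart for Lhx2 and Fgf20. Levels of different probe sets are not comparable.

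Genotypes were compared on log2(signal + 16) with limma over 27022 probe sets. None was called (0%), the lowest adjusted p being 0.999979. Ezh2 itself was not called either (log2 -1.88, SE 0.34), so this fit missed the deleted gene. The fit had no term for the array number, so differences between the numbers counted as spread within a genotype. A fit with a replicate block is given at the end. At an unadjusted p under 0.05, 94 probe sets were higher (0.348%) and 16 lower (0.0592%). Of the placode probe sets, 1 had such a p, the brightest of Nfatc1. With 2 arrays against 2, an exact permutation test on a single gene could not go below 0.333 (two-sided). Of the 9 placode genes, 2 had Ezh2cKO signals that did not overlap with WT and lay higher, Nfatc1 and Trps1, and 0 lay lower. The shares over all 12703 genes were 8.52% higher and 8.39% lower. Averaged over all tested probe sets of a gene, Runx1 and Trps1 lay higher and Edaradd lower without overlap. Within both numbers 4 placode genes were higher and 3 lower, beside 25.2% and 25.6% of all genes. The median log2 difference of the 9 genes was 0.28 within number 1 and -0.09 within number 2, against 0.02 and -0.01 over all genes. The genes therefore did not shift one way as a list. Leaving out Ezh2cKO 1, the array that stood apart in Xist, leaves only a number 2 knockout array. The values that follow thus also take in the difference between the numbers. The fitted log2 difference was then 0.62 for Nfatc1, 0.31 for Trps1 and 0.45 for Runx1. It was -0.92 for Dkk4, -0.72 for Edaradd, -1.04 for Fgf20 and -0.27 for Sostdc1. Lhx2 (-0.26) and Edar (-0.21) changed sign without Ezh2cKO 1. Between the numbers, 7588 probe sets were called without that array.

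The ectodysplasin receptor and its adaptor gave different pictures. Edar had signals of 1255 and 825 in Ezh2cKO, against 1032 and 885 in WT. The Ezh2cKO values lay on either side of the WT values, with a log2 difference of 0.28 within number 1 and -0.10 within number 2 (fitted 0.09, SE 0.26). A further Edar probe set was dim, with signals between 0.176 and 4.35, and was not tested.

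Edaradd, which couples Edar to NF-kB, had signals of 2205 and 1476 in Ezh2cKO, against 2764 and 2153 in WT, by its brightest probe set. That probe set is of a design type that can cross-hybridise. Its Ezh2cKO signal was 0.798 times that of WT within number 1 and 0.685 times within number 2 (log2 difference -0.43, SE 0.26), but the groups overlapped. The second probe set gave 1365 and 1373 in Ezh2cKO, against 1479 and 1802 in WT, without overlap (log2 -0.25, SE 0.19). The third, with 464 and 638 in Ezh2cKO and 615 and 651 in WT, was also lower within both numbers. In the fourth the sign differed between the numbers, at log2 0.21 and -0.31. Thus 3 of the 4 tested Edaradd probe sets were lower in Ezh2cKO within both numbers, by sizes that did not pass the test. The fifth, below the filter, had higher signals in Ezh2cKO without overlap, 1.64 times WT within number 1 and 1.49 times within number 2.

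Among 16 further genes of the ectodysplasin and NF-kB pathway, 12 were tested, and 1 had higher and 2 had lower Ezh2cKO signal without overlap, near the 8.52% and 8.39% of all genes. Their median log2 difference was -0.08 within number 1 and 0.01 within number 2. Nfkbia, the NF-kB inhibitor that NF-kB itself induces, had 9850 and 13324 in Ezh2cKO, against 10149 and 10262 in WT. Rela, an NF-kB subunit, had 3514 and 4408 in Ezh2cKO, against 3327 and 3637 in WT. Both genes overlapped between the genotypes.

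Of the secreted inhibitors, Sostdc1, which blocks BMP and Wnt signals around the placode, had signals of 7866 and 5823 in Ezh2cKO, against 7937 and 6216 in WT. Its genotype difference was log2 -0.01 within number 1 and -0.09 within number 2 (fitted -0.05, SE 0.21, 95% confidence interval -0.58 to 0.48). The other Sostdc1 probe set gave -0.15 and 0.03. Dkk4, a Wnt antagonist made by the placode, had 463 and 255 in Ezh2cKO, against 541 and 452 in WT. It was 0.856 times WT within number 1 and 0.564 times within number 2 (log2 -0.50, SE 0.34). Ezh2cKO 1 lay between the WT arrays, so the genotypes overlapped, and without Ezh2cKO 2 the log2 difference was -0.09.

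Fgf20, the ligand by which the placode signals to the dermal condensate beneath it, had 325 and 91.3 in Ezh2cKO, against 302 and 138 in WT. Its genotype difference was log2 0.10 within number 1 and -0.52 within number 2 (fitted -0.21, SE 0.66). The sign of the fitted difference turned with the array left out, to 0.62 without Ezh2cKO 2 and 0.31 without WT 1. Of 12 FGF receptors, ligands and feedback genes, 10 were tested, with 1 higher and 1 lower in Ezh2cKO without overlap, again near those shares. Fgfr2, a receptor of the epidermis, had 4538 and 4117 in Ezh2cKO, against 4409 and 3991 in WT.

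None of the transcription factors passed the test between the genotypes. Nfatc1, a calcium-regulated factor that keeps follicle stem cells quiescent, had 866 and 934 in Ezh2cKO, against 565 and 644 in WT. This was 1.53 times WT within number 1 and 1.45 times within number 2 (log2 0.56, SE 0.20, 95% confidence interval 0.05 to 1.07, limma adjusted p 0.999979). Averaged over its 5 probe sets the log2 difference was 0.33, and the genotypes then overlapped. Of its 5 probe sets, 4 were higher within both numbers and 3 did not overlap. The exception, the fourth in brightness, had 129 and 245 in Ezh2cKO, against 157 and 162 in WT.

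Nfatc1 is also known from endothelium. All 7 endothelial markers passed the filter, and their summed signal was 4261 and 10282 in Ezh2cKO, against 8085 and 9635 in WT. The part of endothelial cells in the Nfatc1 difference was not tested. In such bulk samples, fewer cells of a type and less RNA per cell cannot be told apart.

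Trps1, a GATA-type repressor needed for hair growth, had 426 and 407 in Ezh2cKO, against 327 and 323 in WT. The replicates lay close together, and Ezh2cKO was 1.30 times WT within number 1 and 1.26 times within number 2 (log2 0.34, SE 0.23). Its second probe set gave 390 and 265 in Ezh2cKO, against 293 and 194 in WT, so it was higher within each number but overlapped across them. The 2 dimmer Trps1 probe sets had signs that differed between the numbers. Trps1 is also made by dermal cells. The 8 dermal fibroblast markers, given above, summed within 62694 to 71858 in Ezh2cKO and 62959 to 68076 in WT. The brightest genes dominate such a sum. Of 5 tested dermal condensate markers, 1 was higher and 1 lower in Ezh2cKO without overlap, beside 8.52% and 8.39% of all genes. The part of dermal cells in the Trps1 difference was not tested.

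Lhx2, a LIM-homeobox factor of the placode and of follicle progenitors, had 1656 and 468 in Ezh2cKO, against 1169 and 268 in WT. Within each number Ezh2cKO was higher, by 1.42 times and 1.75 times, yet the 2 arrays of each genotype lay so far apart that the groups overlapped. The fitted log2 difference was 0.63 (SE 0.85), and it was -0.40 without WT 2 and -0.26 without Ezh2cKO 1.

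Runx1, a runt-domain factor of follicle stem cells and of blood-forming cells, had 277 and 162 in Ezh2cKO, against 163 and 79.2 in WT. Its brightest probe set was 1.70 times WT within number 1 and 2.04 times within number 2 (log2 0.81, SE 0.48). The lower Ezh2cKO signal and the higher WT signal were almost equal, so the groups overlapped by a narrow margin. Within each number, Ezh2cKO exceeded WT in all 4 tested Runx1 probe sets, and 2 of the 4 did not overlap. The second probe set gave 236 and 152 in Ezh2cKO, against 99.0 and 92.4 in WT (log2 0.88, SE 0.39). The 2 Runx1 probe sets below the filter also had higher Ezh2cKO signal within each number. Several of these signals are near the filter's level, where MAS5 values are noisy.

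Runx1 is also known from blood-derived cells. Of 7 immune markers, 5 passed the filter. The summed signal of all 7 was 904 and 926 in Ezh2cKO and 1104 and 804 in WT. Cd74, the MHC class II invariant chain, had 314 and 312 in Ezh2cKO, against 359 and 264 in WT, and Csf1r, a receptor of macrophages, had 265 and 274 in Ezh2cKO, against 341 and 222 in WT. Ptprc, carried by all leukocytes, was below the filter, with signals of 41.1 and 33.2 in Ezh2cKO, against 41.2 and 13.0 in WT. The Langerhans cell marker Cd207 had 15.8 and 26.6 in Ezh2cKO, against 9.74 and 57.0 in WT. H2-Ab1, an MHC class II gene of the same list, had 797 and 465 in Ezh2cKO, against 342 and 166 in WT. It thus lay higher in Ezh2cKO without overlap, beside 8.52% of all genes. H2-Aa, the remaining gene of that list, was below the filter, with 60.5 and 67.3 in Ezh2cKO, against 61.1 and 77.9 in WT. The part of such cells in the Runx1 difference was not tested.

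**Figure D2:**
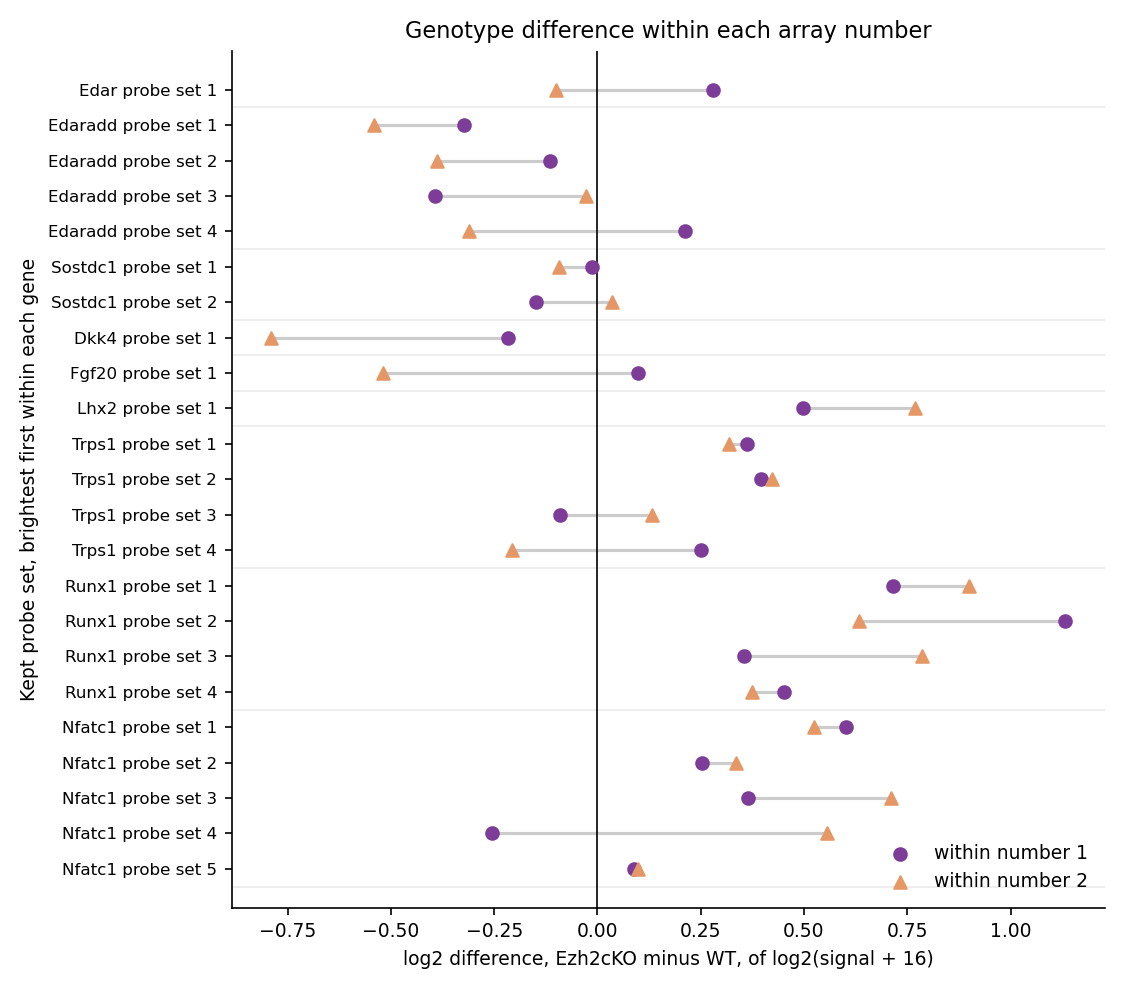
Genotype difference (Ezh2cKO minus WT, on log2(signal + 16)) of the 23 tested probe sets, each joining the value within number 1 (circle) to that within number 2 (triangle), with the brightest probe set of a gene on top. All 4 Runx1 probe sets and 4 of 5 Nfatc1 probe sets lie right of 0 in both numbers, while 3 of 4 Edaradd probe sets and Dkk4 lie left of 0 in both.

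Over the 23 probe sets, 6 were higher and 1 was lower in Ezh2cKO without overlap, where 7.22% and 7.21% of all tested probe sets were. Those 6 came from Nfatc1 (3), Runx1 (2) and Trps1 (1), and probe sets of 1 gene measure the same RNA, so they are not separate evidence.

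Polycomb repressive complex 2 is known to occupy promoters rich in CpG dinucleotides. The 250 bases before the start are shown for Lhx2 and Runx1, whose Ezh2cKO signal exceeded that of WT within each number. They are also shown for Edar, whose sign differed between the numbers. These genes were picked by their signals, none passed the genotype test, and Polycomb binding to these windows was not tested. The sequences are from RefSeq (GRCm38.p6), 5′ to 3′, and capitals mark CpG dinucleotides. Windows were examined for 5 of the 10 genes, with 7 starts, those not printed here being of Edaradd and Foxi3. No window was examined for the remaining 5 genes, Nfatc1 among them, so their CpG content and motifs are not given.
Lhx2 upstream start, chr2:38339031-38339280, plus strand: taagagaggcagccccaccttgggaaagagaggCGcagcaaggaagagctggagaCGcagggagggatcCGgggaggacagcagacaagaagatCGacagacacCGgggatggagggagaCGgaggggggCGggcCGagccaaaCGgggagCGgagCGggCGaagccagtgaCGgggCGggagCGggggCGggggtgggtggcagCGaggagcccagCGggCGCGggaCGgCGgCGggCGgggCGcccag
Lhx2 downstream start, chr2:38351058-38351307, plus strand: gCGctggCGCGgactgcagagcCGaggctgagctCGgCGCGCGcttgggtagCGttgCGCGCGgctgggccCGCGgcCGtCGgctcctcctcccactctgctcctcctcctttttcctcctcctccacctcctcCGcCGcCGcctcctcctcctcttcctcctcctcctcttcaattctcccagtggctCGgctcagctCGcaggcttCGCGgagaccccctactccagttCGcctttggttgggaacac
Runx1 distal start, chr16:92826075-92826324, minus strand: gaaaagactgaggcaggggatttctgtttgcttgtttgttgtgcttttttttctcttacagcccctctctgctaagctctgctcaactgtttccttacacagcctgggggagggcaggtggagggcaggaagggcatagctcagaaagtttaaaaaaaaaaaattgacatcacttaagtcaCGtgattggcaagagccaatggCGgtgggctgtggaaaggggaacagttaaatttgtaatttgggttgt
Runx1 proximal start, chr16:92697330-92697579, minus strand: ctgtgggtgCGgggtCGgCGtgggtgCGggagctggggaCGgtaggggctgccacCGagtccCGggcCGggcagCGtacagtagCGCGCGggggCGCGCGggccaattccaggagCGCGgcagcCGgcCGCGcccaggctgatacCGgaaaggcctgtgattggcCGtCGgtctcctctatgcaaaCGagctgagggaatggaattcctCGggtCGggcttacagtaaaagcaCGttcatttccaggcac
Edar start, chr10:58675697-58675946, minus strand: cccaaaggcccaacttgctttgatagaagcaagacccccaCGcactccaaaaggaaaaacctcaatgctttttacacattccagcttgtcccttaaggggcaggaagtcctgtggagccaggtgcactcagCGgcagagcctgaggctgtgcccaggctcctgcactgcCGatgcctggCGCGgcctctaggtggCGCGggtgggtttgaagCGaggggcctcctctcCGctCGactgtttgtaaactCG

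Both Lhx2 windows were rich in CpG, with 25 and 24 dinucleotides, and so was the proximal Runx1 window, with 27. The distal Runx1 window held 2. The window of Foxi3, a gene not measured here, held 24. The Edar window had 11 and the Edaradd window 8, and the median over 32851 windows of the same length was 6. The windows of the 5 genes were searched on both strands for the LEF/TCF motif CTTTGAA with its forms CTTTGAT and CTTTGTT, for the RUNX motif TGTGGT, the LHX motif TAATTA and the FOX motif TGTTTA, and for an NF-kB motif. The 1 match was a LEF/TCF match in Edar that began 233 bases before the start and overlapped no other motif. LEF/TCF letters were found in 12% of all windows, RUNX in 14%, NF-kB in 1.41%, LHX in 4.84% and FOX in 12%. Which start each probe set reads is not known here.

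Between the array numbers, Lhx2 showed the largest difference of the 9 genes. Its signal was 468 in Ezh2cKO and 268 in WT on the arrays numbered 2, against 1656 and 1169 on the arrays numbered 1. That is 0.283 times in Ezh2cKO and 0.229 times in WT. The log2 difference, number 2 minus number 1, was -1.92 (SE 0.28, limma adjusted p 0.00582), and 18 of the 27022 probe sets had a more negative one.

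Fgf20 had 91.3 in Ezh2cKO and 138 in WT on the arrays numbered 2, against 325 and 302 on those numbered 1. Its log2 difference was -1.36 (SE 0.22, limma adjusted p 0.00772), with adjusted p 0.0614 without Ezh2cKO 2. Sostdc1 had 5823 and 6216 on the arrays numbered 2, against 7866 and 7937 on those numbered 1. Its log2 difference was -0.39 (SE 0.07, limma adjusted p 0.0116), and the adjusted p was 0.0569 without WT 2 and 0.105 without Ezh2cKO 2. Its other probe set gave -0.21 and did not pass.

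These 3 genes were the ones called among the 9, all lower in number 2, beside 13.7% of all genes called lower and 11.6% called higher. With genotype as a term in the fit 5 of the 9 were called, Edaradd (limma adjusted p 0.0200) and Runx1 (0.0222) being added. Both were called by their brightest probe sets, and other probe sets of these genes went the other way, as given below. The count was 4 after quantile normalization, 8 after median scaling, 2 without the intensity trend, 2 without WT 2, 5 without WT 1 and 1, Lhx2, without Ezh2cKO 2, all of them lower. In 7 of the 9 genes the arrays numbered 2 lay below those numbered 1 without overlap, beside 37.4% of all genes, and in 0 they lay above, beside 31.4%, by the brightest probe set. Averaged over all tested probe sets of a gene, 5 of the 9 lay below and 1 above without overlap, where 3728 of the 12703 genes lay below and 5212 above. The median log2 difference was -0.47 over the 9 genes and -0.04 over all genes. Lhx2 and Fgf20 were at least 2-fold lower in all pairs of a number 2 and a number 1 array, which held for 0.26% of all genes, while 1.53% were at least 2-fold higher.

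Runx1, Trps1 and Edaradd had probe sets that went opposite ways. The brightest Edaradd probe set, which can cross-hybridise, gave log2 -0.47, and its other tested probe sets gave 0.15, 0.26 and 0.38. None of these Edaradd values passed in the main fit. The brightest Runx1 probe set was lower in number 2 (log2 -0.82, SE 0.36, limma adjusted p 0.127), and passed with genotype as a term, under both other scalings and without WT 1, while the third in brightness was higher, with 253 in Ezh2cKO and 140 in WT on the arrays numbered 2, against 84.7 and 62.8 on those numbered 1 (log2 1.20, limma adjusted p 0.0287). The third Trps1 probe set had 238 and 215 on the arrays numbered 2, against 51.2 and 55.5 on those numbered 1 (log2 1.81, limma adjusted p 0.00288), and the brightest gave -0.04. The dimmest Nfatc1 probe set was also higher in number 2 (log2 0.91, limma adjusted p 0.0208). For Runx1, Trps1 and Edaradd the mean over a gene's probe sets was higher in number 2, so no direction is given for these genes.

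Over all tested probe sets 30.8% were called between the numbers, 5780 higher (21.4%) and 2546 lower (9.42%) in number 2. Of the 23 placode probe sets, 3 were called higher and 3 lower. The split depended on the scaling of the arrays, with 2819 higher and 2618 lower after quantile normalization and 2007 higher and 14242 lower after scaling to a common median. The median log2 difference of all probe sets was 0.12 as deposited, -0.05 after quantile normalization and -0.52 after median scaling. Lhx2 stayed below each of these at -2.01 and -2.58, as did Fgf20 at -1.74 and -1.97 and Sostdc1 at -0.28 and -1.06. Sostdc1 stood out far less, since 2929 of the 27022 probe sets had a more negative difference as deposited, against 59 for Fgf20.

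Of 22 listed Wnt, Hedgehog and BMP genes of the placode, 21 were tested between the numbers. In number 2, 9 were called lower and 1 higher, beside 13.7% and 11.6% of all genes. Their median log2 difference was -0.40, against -0.04 over all genes. The gene that rose was the homeobox gene Msx1 (log2 0.92, limma adjusted p 0.0340). Shh, the placode's Hedgehog ligand, picked once its values were known, had 587 in Ezh2cKO and 451 in WT on the arrays numbered 2, against 2301 and 1918 on those numbered 1 (log2 -1.99, SE 0.16, limma adjusted p 0.00194). Ptch1, the Hedgehog receptor and target, had 6176 and 5262 on the arrays numbered 2, against 8477 and 7556 on those numbered 1 (log2 -0.49). The keratin gene Krt17 (log2 -0.52) and the Wnt effector Lef1 (log2 -0.49) also fell, and Lgr4, a receptor that strengthens Wnt signals, gave -0.15 and did not pass. Between the genotypes 1 of these 21 genes had higher signal in Ezh2cKO without overlap and 0 lower, beside 8.52% and 8.39% of all genes. The number called was 3 without Ezh2cKO 2, 4 without WT 2, 5 without the intensity trend, 6 after quantile normalization and 18 after median scaling, and all of these were lower.

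**Figure D3:**
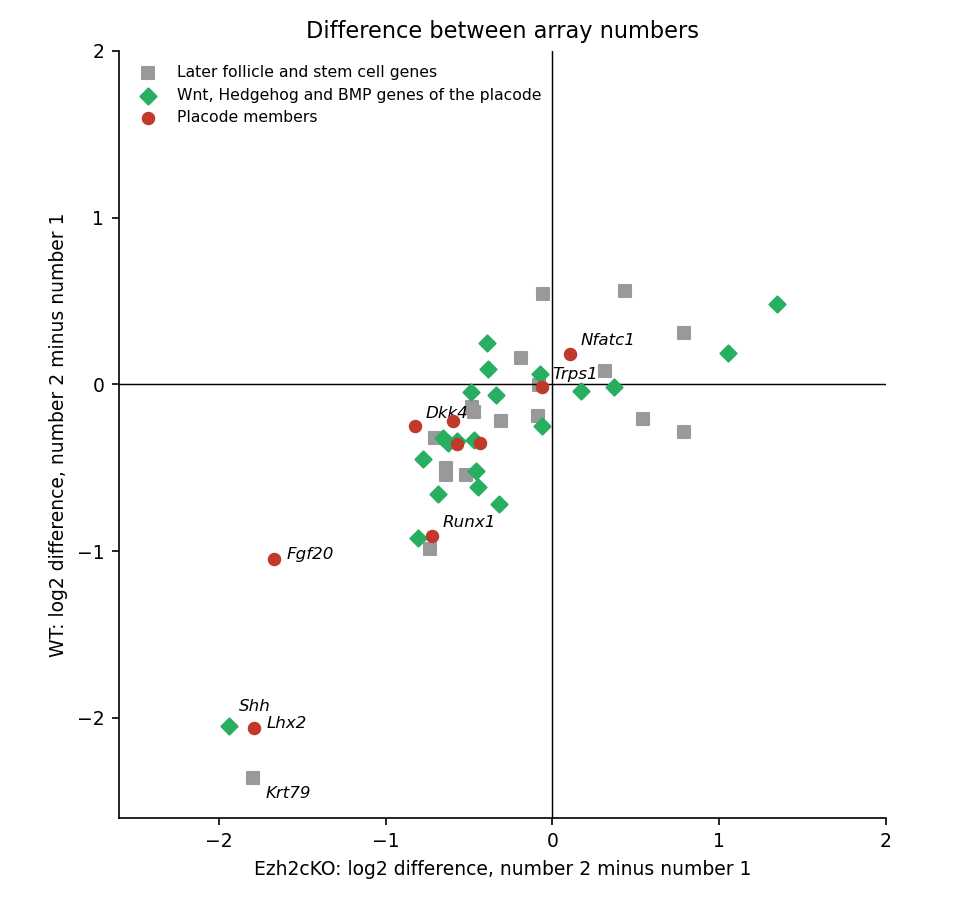
Difference between the array numbers (number 2 minus number 1, on log2(signal + 16)) in Ezh2cKO on the x axis and in WT on the y axis, for the 9 placode genes (red circles), 21 Wnt, Hedgehog and BMP genes (green diamonds) and 18 later follicle genes (grey squares), each by its brightest tested probe set. Lhx2, Shh and Krt79 lie together at the lower left, with Fgf20 next, and Nfatc1 and Trps1 lie near 0.

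Of 19 later follicle and stem cell genes, 18 were tested, and 4 fell and 2 rose in number 2, near the shares over all genes of 13.7% and 11.6%. Krt79, a keratin of the follicle's upper opening, also picked once its values were known, had 493 and 259 on the arrays numbered 2, against 1751 and 1392 on those numbered 1 (log2 -2.08, SE 0.29, limma adjusted p 0.00507). Lrig1, a membrane protein of upper follicle stem cells, fell by 0.57 on the log2 scale. Krt15 gave -0.14 and Sox4 -0.04, and neither passed.

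Markers of other cells also differed between the numbers. Of the 8 dermal fibroblast markers, 5 were called higher in number 2 and 0 lower, beside 11.6% and 13.7% of all genes. Their median log2 difference was 0.37. The brightest of them, Dcn (log2 -0.21) and Postn (log2 -0.14), lay lower in number 2 without overlap but did not pass. All 7 endothelial markers were higher on both arrays numbered 2 without overlap, beside 31.4% of all genes, and 1 passed the test. The log2 differences were 0.59 to 1.80 within Ezh2cKO and 0.12 to 0.41 within WT. Basal keratinocyte markers had a median of -0.15, and 1 of 6 was called lower, beside 13.7% of all genes. The part of these cells in the lower Lhx2, Fgf20 and Sostdc1 signals was not tested, and what the sample numbers stand for is not given in the sources used here.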

How the data were processed

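The values the authors deposited are MAS5 signal intensities, linear and 1 for each probe set of an array. MAS5 is named, without a version, in the submitters' processing notes. The 2% trimmed mean was 500.0 on each array, so the deposited scaling was kept. Probe sets were named through the platform annotation (34945 with 1 symbol), with symbols updated through gene identifiers (34741 matched). Groups and numbers come from the sample titles.

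Signals were transformed as log2(signal + 16), and the upper 60% of probe sets by mean signal were kept. Genotypes, and array numbers, were each compared with limma 3.58.1 in R 4.3.3 (intensity trend, no block), with Benjamini-Hochberg adjustment over 27022 probe sets and a threshold of 0.05. The fit was tested on simulated data. No outcome of that test is given here, and on the arrays themselves the genotype fit missed the deleted gene, Ezh2. A gene is represented by its brightest kept probe set, and signals are quoted for array 1 and then array 2. All placode genes are named, and from other lists up to 4 genes by mean signal. Exceptions, picked once their values were known, are Shh, Krt79, Msx1 and the marker genes. The genes and lists were chosen with earlier results of these data known.

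Alternatives were pseudocounts, filters, 2 scalings, no intensity trend, a replicate block, genotype as a term, an adjusted p of 0.1, averaging all probe sets of a gene, and each array left out. Detection calls were not used here.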

Additional observations from a re-analysis of the deposited data

How the results depend on the processing

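Between the genotypes, the count of called probe sets was 0 under every pseudocount, filter, scaling and threshold tried, and 0 to 52 with 1 array left out, where the lone array of a genotype is assumed to vary like the others. With the replicate block it was 6, none of them a placode gene (adjusted p of 0.549 for Lhx2 and 0.616 for Nfatc1). Deviations of same-numbered arrays from their genotype means correlated at 0.77 across probe sets, but the labels only share a number. Placode genes without overlap between the genotypes numbered 2, against 1 after median scaling, 3 after quantile normalization (Edaradd lower in addition), 3 when probe sets were averaged (Runx1 and Trps1 higher, Edaradd lower) and 4 to 7 with 1 array left out, where separation is easier with 3 arrays. Leaving out 1 array moved the genotype difference over a range that crossed 0 for Lhx2 (-0.40 to 1.66), Edar (-0.21 to 0.39), Fgf20 (-1.04 to 0.62) and Sostdc1 (-0.27 to 0.16), and kept its sign for the other 5 genes.

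Between the numbers, 8326 probe sets were called, against 4755 in the upper 40%, 5437 after quantile normalization, 16249 after median scaling and 916 to 10271 with 1 array left out. Nfatc1 turned to -0.51 after median scaling and ranged from -0.15 to 0.45 with 1 array left out, and Trps1 ranged from -0.22 to 0.14. Averaged over all tested probe sets of a gene, Runx1 gave 0.090, Edaradd 0.080 and Trps1 0.19, and the cause was not tested. Lhx2 passed in every fit run. The signals at the low end limit Fgf20 and Runx1, since whether they were above background is not known.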
